A study of Mus musculus with 3 samples.

Results

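PU.1 binding at the Toll-like receptor genes was examined in i660BM, a mouse pro-B cell line of C57BL/6 origin that carries a PU.1-inducible system. The set comprised the 10 genes Tlr1 to Tlr9 and Tlr13, out of 21887 protein-coding genes placed on the chromosomes 1 to 19, X and Y. For each gene, every peak overlapping its RefSeq span plus 20 kb on each side was taken. Such a stretch is called the window of the gene here. Chromatin was precipitated with a rabbit polyclonal antibody to PU.1 after 24 h of induction with doxycycline at 70 ng/ml. The 2 PU.1 libraries, replicate 2 and replicate 3, received the same induction. The third sample of the series was input DNA, with no doxycycline dose or induction time recorded. For the input, no peak list was used here. Uninduced cells were not analysed here, so binding that depends on the induction cannot be told apart from binding that does not. Nothing in the labels says that the libraries came from separate cultures. Peak lists carry no RNA, so the pro-B identity of the cells was not checked against markers.

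Toll-like receptors are innate sensors of microbial molecules. Those at the cell surface (Tlr1, Tlr2, Tlr4, Tlr5 and Tlr6) bind lipids, lipoproteins and flagellin, and those in endosomes (Tlr3, Tlr7, Tlr8, Tlr9 and Tlr13) bind nucleic acids. They signal through the adaptors MyD88 and TRIF to NF-kB and interferon regulatory factors. PU.1, the product of Spi1, is an ETS-family transcription factor of B cells and myeloid cells, and it binds purine-rich DNA around a GGAA core.

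Replicate 2 had 74494 peaks and replicate 3 had 6169, so the libraries differ widely in how many sites their lists hold. Each peak carries a score from the authors' peak caller, taken to be the negative log10 of its p-value multiplied by 10, as this version of the caller writes it. The score depends on depth and was used only within its own list, where it starts at 70.0 in replicate 2 and 70.01 in replicate 3. A gene without a peak therefore had none above the lowest listed score, which does not show that PU.1 was absent. The merged list of 49385 intervals gives positions only. Library depths were not used, so no counting error could be attached to a score. Coordinates are 1-based on GRCm38 (mm10).

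PU.1 peaks recurred in both libraries at 3 of the 10 receptor genes, beside 24.2% of all protein-coding genes. These were Tlr9, a sensor of unmethylated CpG DNA, Tlr4, the lipopolysaccharide receptor, and Tlr3, a sensor of double-stranded RNA. The peaks of Tlr9 and Tlr4 lay across a gene end, and the peak of Tlr3 lay 3.53 kb upstream of the span in replicate 2. Tlr2, Tlr5, Tlr6, Tlr7, Tlr8 and Tlr13 had peaks in replicate 2 alone, and Tlr1, which pairs with Tlr2 to sense lipopeptides, had none in any list.

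**Figure D1:**
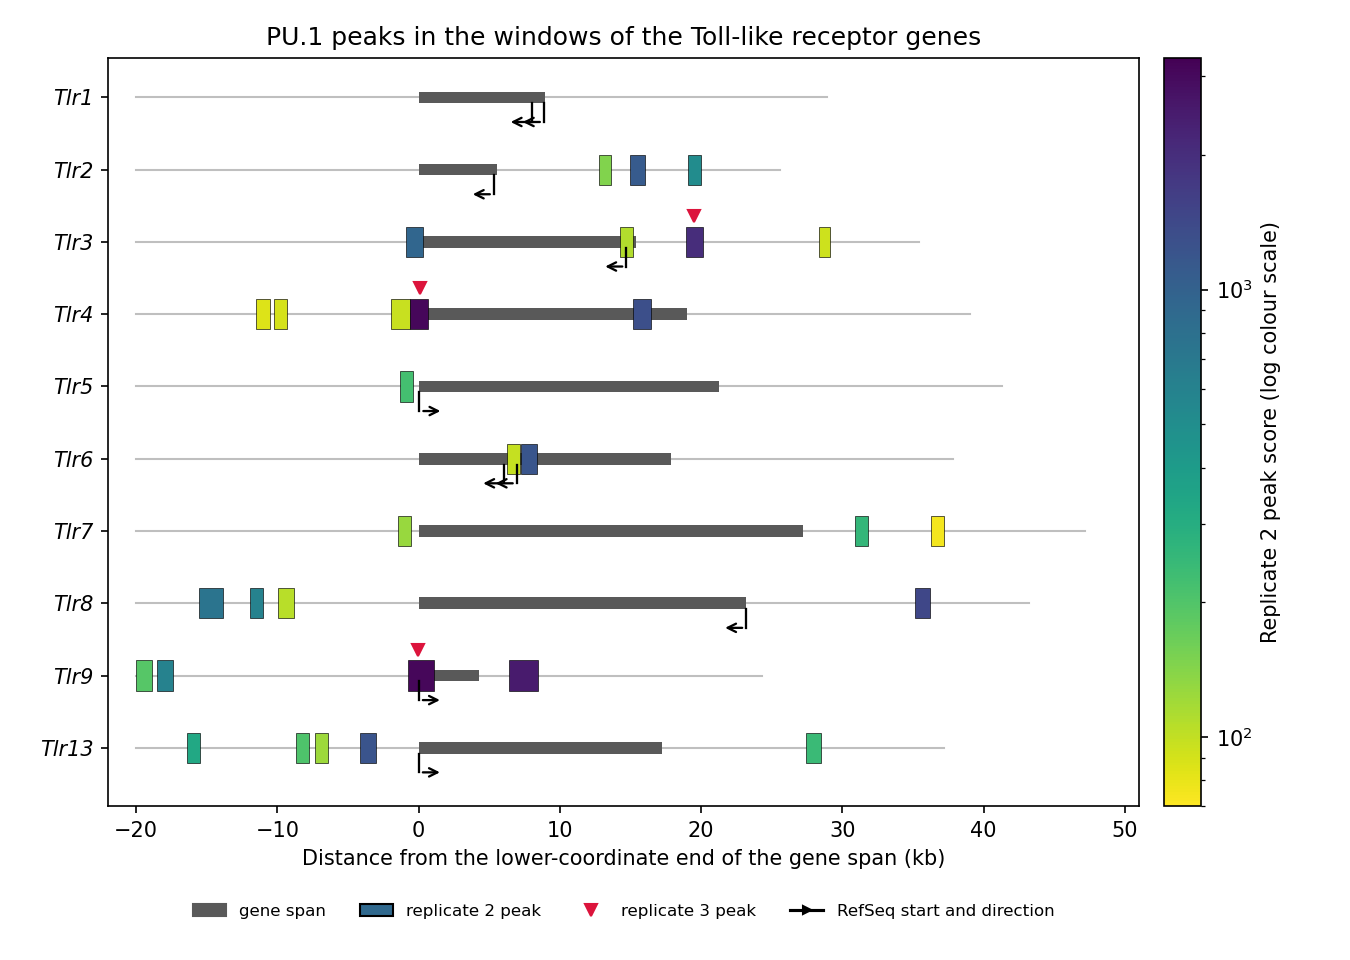
Windows of the 10 Toll-like receptor genes, drawn to scale as distance in kb from the lower-coordinate end of each span, with replicate 2 peaks as boxes coloured by score (log scale), replicate 3 peaks as red triangles and RefSeq starts as bent arrows (Tlr4 and Tlr7 had no entry in the promoter table). The 3 replicate 3 peaks sit over the darkest boxes of Tlr3, Tlr4 and Tlr9, and the window of Tlr1 is empty.

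Within 20 kb, these counts lay close to the shares of all genes. In replicate 2, 9 of the 10 receptor genes had a peak in the window, and 84.2% of all protein-coding genes did. In replicate 3, 3 of 10 did, beside 24.1% of all genes. Regions holding a peak of each library gave the same 3 genes, beside 24.2%. There were 6133 such regions for 6169 replicate 3 peaks, so this count largely repeats that of replicate 3. The merged list reached 9 of 10, beside 76.1%. Among the 9305 genes with spans as long as those of the receptors, 4279 to 27195 bp, the shares were 85.3% in replicate 2 and 23.2% in replicate 3. The receptor windows held a mean of 3.1 replicate 2 peaks, against 3.6 over all genes, and 0.3 replicate 3 peaks, against 0.32. Counting the gene span alone, 4 of 10 receptors (Tlr3, Tlr4, Tlr6 and Tlr9) had a replicate 2 peak, below the 61.4% of all genes, and 4 had a merged interval, beside 53.5%. With both PU.1 libraries in 1 group and the receptors not being replicates of a condition, no test was made, and the receptor set is not shown to differ from other genes.

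**Figure D2:**
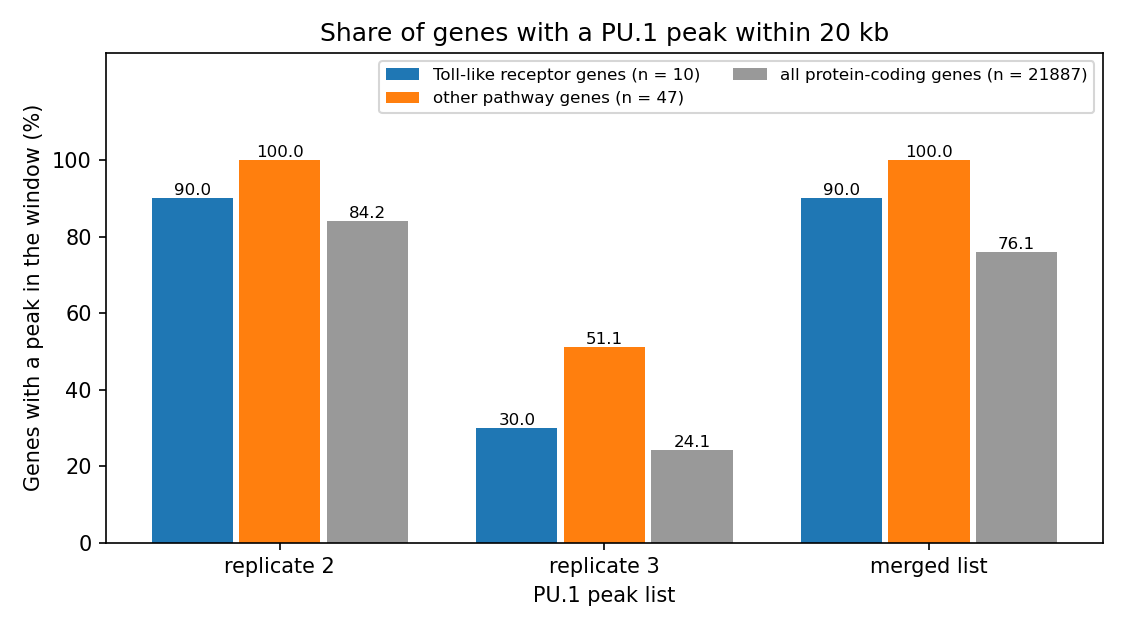
Share of genes in percent with a peak within 20 kb of the span, by peak list, for the 10 Toll-like receptor genes, 47 other genes of the pathway and all 21887 protein-coding genes. The blue bars stand close to the grey bars in replicate 3 (30.0 and 24.1), and the orange bar is at 51.1.

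The promoter of Tlr9 was the only 1 of 10 receptor promoter windows overlapped by a replicate 3 peak, beside 2.23% of the 32851 RefSeq promoter windows. A promoter window here runs from 250 bases before a RefSeq start to 50 bases after it. Replicate 2 peaks overlapped 4 of the 10 windows (those of Tlr3 and Tlr9 and both of Tlr6), beside 27.5% of all windows. Windows were available for 8 of the 10 receptors, with 2 each for Tlr1 and Tlr6 and none for Tlr4 and Tlr7. The promoter of Tlr4, whose peaks in both libraries spanned a gene end, was therefore not assessed. Letters known from PU.1 and other ETS sites, GAGGAA and the longer GAGGAAGT that contains it, were searched on both strands. A composite of an ETS and an interferon regulatory factor site was searched in the same way as GGAANNGAA, in which N is any base, and can overlap the others. Of all promoter windows, 28.3% held GAGGAA, 3.2% held GAGGAAGT and 8.24% held GGAANNGAA. Of the 732 windows overlapped by a replicate 3 peak, 49.2%, 21.2% and 12.0% did. Of the 9024 windows overlapped by a replicate 2 peak, 32.0%, 5.37% and 8.34% did.

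A choice of receptor promoters with a peak, a motif or both is printed as the 250 bases before the start, from RefSeq on GRCm38.p6, 5′ to 3′ on the strand of the gene. Capitals mark GAGGAA or GAGGAAGT or their reverse complements.
Tlr9, chr9:106222348-106222597, plus strand, peak in both libraries: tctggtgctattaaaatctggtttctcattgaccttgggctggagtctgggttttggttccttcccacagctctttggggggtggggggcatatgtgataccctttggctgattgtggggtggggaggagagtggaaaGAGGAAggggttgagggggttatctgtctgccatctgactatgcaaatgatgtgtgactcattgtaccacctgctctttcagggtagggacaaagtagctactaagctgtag
Tlr9, chr9:106222598-106222627, the first 30 bases from the start: tgaaagtgtcACTTCCTCaattctctgaga
Tlr11, chr14:50357664-50357913, plus strand, peak in both libraries: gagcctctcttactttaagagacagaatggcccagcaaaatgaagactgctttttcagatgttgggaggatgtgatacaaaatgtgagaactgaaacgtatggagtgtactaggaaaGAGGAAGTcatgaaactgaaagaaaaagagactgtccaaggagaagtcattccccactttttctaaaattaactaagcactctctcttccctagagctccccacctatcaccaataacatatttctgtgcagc
Tlr6, chr5:64960049-64960298, minus strand, weak replicate 2 peak: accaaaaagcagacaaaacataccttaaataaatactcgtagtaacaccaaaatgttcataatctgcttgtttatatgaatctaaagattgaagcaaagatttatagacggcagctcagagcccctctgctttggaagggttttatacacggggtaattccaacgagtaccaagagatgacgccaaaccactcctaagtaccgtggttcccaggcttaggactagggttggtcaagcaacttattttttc
Tlr3, chr8:45410381-45410630, minus strand, weak replicate 2 peak: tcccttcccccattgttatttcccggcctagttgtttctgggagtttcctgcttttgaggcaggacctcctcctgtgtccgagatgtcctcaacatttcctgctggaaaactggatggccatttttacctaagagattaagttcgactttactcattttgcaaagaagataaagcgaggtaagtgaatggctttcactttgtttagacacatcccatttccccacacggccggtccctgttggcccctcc
Tlr1, chr5:64933559-64933808, minus strand, no peak: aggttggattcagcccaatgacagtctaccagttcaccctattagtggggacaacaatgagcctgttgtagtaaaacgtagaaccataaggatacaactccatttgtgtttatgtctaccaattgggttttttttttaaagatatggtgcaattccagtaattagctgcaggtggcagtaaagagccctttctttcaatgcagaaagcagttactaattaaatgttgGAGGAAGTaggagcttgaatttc
Tlr13, chrX:106143025-106143274, plus strand, no peak over it: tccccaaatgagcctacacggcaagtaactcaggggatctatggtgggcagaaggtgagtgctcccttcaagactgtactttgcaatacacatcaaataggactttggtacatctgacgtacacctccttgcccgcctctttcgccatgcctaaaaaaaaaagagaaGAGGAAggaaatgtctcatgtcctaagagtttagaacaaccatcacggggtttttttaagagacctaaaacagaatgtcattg

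With the start counted as position 0, the Tlr9 window held GAGGAA from -112 to -107 and, on the opposite strand, GAGGAAGT from 10 to 17. The latter lay 49 bp from the centre of the replicate 3 peak and 132 bp from the centre of the replicate 2 peak. Tlr11, a receptor for profilin that is outside the set of 10, had GAGGAAGT from -133 to -126, at 9 bp from the centre of its replicate 2 peak and 21 bp from that of its replicate 3 peak. A match did not go with a peak throughout. The window of Tlr1 at the start farther upstream held GAGGAAGT from -23 to -16 and lay under no peak, and those of Tlr13 and Tlr8 held GAGGAA with no peak over them. In all, 4 of the 10 receptor windows held GAGGAA, 2 held GAGGAAGT and none held GGAANNGAA. The promoters of Tlr3 and Tlr6, overlapped in replicate 2, held none of the 3.

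Among the surface receptors, Tlr4 (chromosome 4, 66827551 to 66846581) had the highest scores. Its replicate 2 peak at 66826971 to 66828214 scored 3100 and its replicate 3 peak at 66827128 to 66828140 scored 309.66. The replicate 3 peak lay wholly inside the other, with centres 42 bp apart, and both spanned the lower-coordinate end of the gene. A score of 3100 or more was held by 3.57% of replicate 2 peaks, and 309.66 or more by 15.8% of replicate 3 peaks. In replicate 2 a second peak inside the gene (66842742 to 66843996) scored 1303, and 3 weak peaks scored 86, 89.9 and 97.26 within 10.5 kb of the same end. None of these 4 recurred in replicate 3. The nearest other protein-coding gene, Astn2, lay 412 to 438 kb from the Tlr4 peaks.

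Tlr2, the partner of Tlr1 and Tlr6 in sensing bacterial lipoproteins (chromosome 3, 83836272 to 83841824), had 3 replicate 2 peaks, all upstream of the gene. They scored 145.12, 1106 and 510.71 at 7.25, 9.39 and 13.5 kb from the span. No peak lay in the gene or at its start, and the nearest replicate 3 peak was 227 kb away. The peaks in the Tlr2 window thus lay away from the gene and in 1 library only, and their link to Tlr2 was not tested.

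Tlr6 (chromosome 5, 64953092 to 64970942) had 2 adjoining replicate 2 peaks inside its span. The stronger, at 64960367 to 64961442, scored 1193 and was centred 856 bp upstream of the nearest RefSeq start. The weaker, at 64959346 to 64960262, scored 98.34 and overlapped both promoter windows. Tlr1 lies next to Tlr6 (chromosome 5, 64924680 to 64933600), and their windows share 20509 bp, which held no peak. The replicate 2 peaks nearest to Tlr1 were 27.3 kb and 25.7 kb away, with scores of 184.48 and 98.34, the latter being the weaker Tlr6 peak. The nearest replicate 3 peak was 160 kb from Tlr1 and 188 kb from Tlr6.

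Tlr5, the flagellin receptor (chromosome 1, 182954752 to 182976044), had a single replicate 2 peak. It scored 220.05 and ended 0.423 kb upstream of the gene (182953459 to 182954329), and 51.5% of the list scored as high or higher. The nearest replicate 3 peak was 392 kb away. Over the 5 surface receptors there were 11 replicate 2 peaks and 1 replicate 3 peak.

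Among the endosomal receptors, Tlr9 (chromosome 9, 106222598 to 106226876) carried the strongest peaks. The replicate 2 peak over its start (106221825 to 106223662) scored 3100, and the replicate 3 peak inside it (106222024 to 106223100) scored 322.76, a value reached by 14.8% of that list. Their centres were 181 bp apart. A second strong replicate 2 peak, 2029 bp wide, lay 2.13 kb downstream of Tlr9 and 2.42 kb from Alas1, the gene of a haem synthesis enzyme (106229004 to 106231032). It scored 2492 and had no counterpart in replicate 3. Of the 1729 replicate 2 peaks scored from 2000 to 2500, 61.6% had a replicate 3 peak. A further pair of replicate 2 peaks in the window, scored 193.9 and 593.58, overlapped the neighbouring gene Twf2.

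Tlr3 (chromosome 8, 45395665 to 45411075) recurred with lower scores. Its upstream replicate 2 peak (45414605 to 45415794) scored 2012, less than the Tlr9 downstream peak that did not recur. Its replicate 3 peak (45414684 to 45415603) scored 102.16, and 68.9% of that list scored as high or higher. The centres lay 56 bp apart and 4819 and 4763 bp upstream of the RefSeq start. Replicate 2 further had a peak scored 935.41 across the far end of the gene, 1 scored 109.4 over the start, centred 8 bp upstream of it, and 1 scored 93.91 at 12.9 kb.

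The 3 receptors on the X chromosome had no replicate 3 peak. Tlr13, a sensor of bacterial ribosomal RNA (106143275 to 106160493), had 5 replicate 2 peaks. The strongest scored 1212 at 3.04 kb upstream, and 1 scored 326.15 inside the neighbouring Atp7a. The other 3 scored 205.61 and 122.46 upstream and 244.14 downstream. Tlr8 (167241123 to 167264329) had 4 peaks, all outside the gene, of which that scored 1447 lay 11.9 kb upstream and those scored 744.07, 597.02 and 105.57 lay 8.83 to 13.8 kb downstream. Tlr7, the sensor of single-stranded RNA next to Tlr8 (167303380 to 167330574), had 3 peaks with scores of 127.52, 256.09 and 75.12 at 0.577, 3.68 and 9.1 kb from its span. Replicate 3 peaks were rare on this chromosome as a whole, at 8.18% of its 966 protein-coding genes, beside 24.8% of genes elsewhere. In replicate 2 the shares were 68.7% and 84.9%. What part the chromosome has in the absence of replicate 3 peaks at these receptors was not tested.

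**Figure D3:**
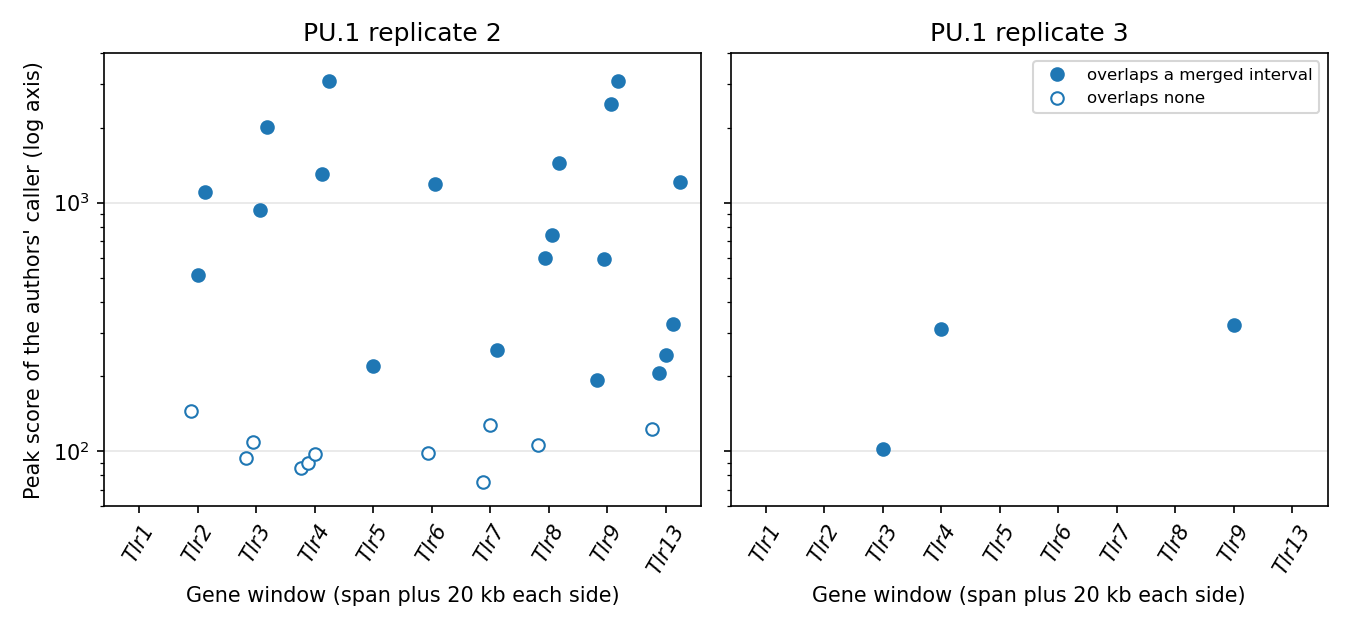
Peak score of the authors' caller (log axis) for every peak in each receptor window, replicate 2 on the left and replicate 3 on the right, filled where the peak overlaps an interval of the merged list. The filled replicate 2 points start at 193.9 and the open ones end at 145.12.

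Over all windows the 31 replicate 2 peaks ran from 75.12 to 3100, with a median score of 256.1, beside 231.8 over the whole list. A score of 1000 or more was reached by 9 of the 31 peaks and by 17.6% of all replicate 2 peaks. Counted by gene, 7 of the 10 receptors had such a peak, beside 42.4% of all protein-coding genes. Among the receptor peaks, recurrence went with the score, except that the peak at 2492 (Tlr9) did not recur while that at 2012 (Tlr3) did. Both peaks at 3100 recurred, as 97.5% of the 2431 peaks with exactly that score did. The 5 peaks scored from 1000 to 1500, at Tlr2, Tlr4, Tlr6, Tlr8 and Tlr13, did not, and over the list 8.87% of the 4588 peaks in that range did. Merged intervals overlapped the 20 receptor peaks that scored 193.9 or more and none of the 11 that scored 145.12 or less. Over the whole replicate 2 list they overlapped 66.5% of peaks.

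Most receptor peaks lay outside the genes, as did most of the window sequence. Of the 31, 24 were outside the span, 4 inside it and 3 across an end, with gene spans making up 29.7% of the 539 kb of window sequence. Where RefSeq starts give the direction of transcription, 13 of the outside peaks were upstream and 5 downstream. Another protein-coding gene was nearer than the receptor for 6 of the 31 peaks, at Tlr7, Tlr8, Tlr9 and Tlr13. None of the 3 replicate 3 peaks was among them. Matching shares for direction and for nearer genes were not computed over all genes, so these counts describe the receptor windows only.

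**Figure D4:**
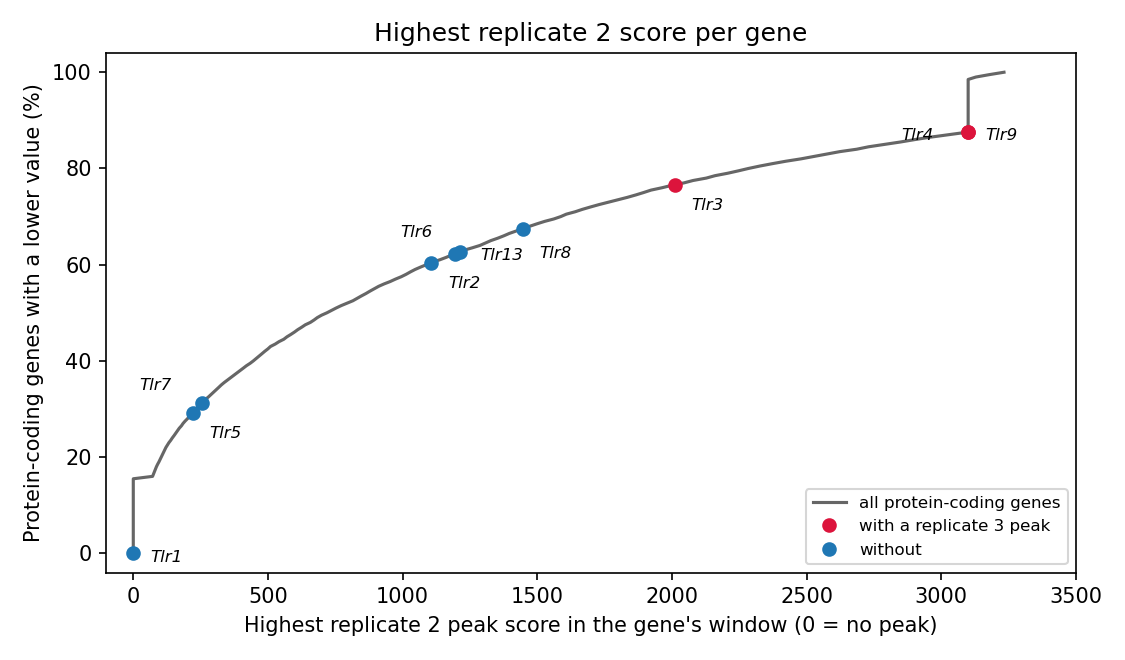
Highest replicate 2 score in each gene's window (x axis, 0 for no peak) against the percentage of protein-coding genes with a lower value (y axis), for all genes (line) and the 10 receptors (points, red where a replicate 3 peak is present). The red points of Tlr3, Tlr4 and Tlr9 stand highest of the 10.

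Ranked by the highest replicate 2 score in the window, Tlr4 and Tlr9 shared the first place among the receptors, and 12.4% of all genes reached their score of 3100. Exactly that score was held by 2431 replicate 2 peaks, with 225 above it, so it does not order the peaks that share it. Tlr3 followed at 2012 (23.4% of genes as high or higher), then Tlr8 at 1447 (32.5%), Tlr13 at 1212 (37.3%), Tlr6 at 1193 (37.7%) and Tlr2 at 1106 (39.6%). Tlr7 at 256.09 (68.7%) and Tlr5 at 220.05 (70.8%) came last of those with a peak. With 1 score per gene and list, neighbours in this order cannot be separated. The order in replicate 3 was 322.76 at Tlr9, 309.66 at Tlr4 and 102.16 at Tlr3, reached by 4.41%, 4.66% and 17.8% of genes.

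Genes that act with the receptors were taken from a list by role. It was chosen with earlier results of these data known, so its shares are description only. All 47 had a replicate 2 peak in the window, beside 84.2% of all genes. A replicate 3 peak was present at 24 (51.1%), beside 24.1% of all genes and 3 of the 10 receptors, and the difference was not tested. Of the 47, 3 lay on the X chromosome and 44 elsewhere, while 3 of the 10 receptors lay on X. Replicate 3 peaks were present at 8.18% of X genes and 24.8% of other genes. No share matched for chromosome or length was computed for the list. Their median span was 23.2 kb, beside 17.5 kb for the receptors and 17.2 kb for all genes. Counting the gene span alone, 14 of 47 list genes and 2 of 10 receptors held a region of both libraries, beside 12.0% of all genes. Of the 35 replicate 3 peaks in these windows, 16 overlapped the listed gene and 9 were nearer to another protein-coding gene.

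Of the 10 accessory and trafficking genes, 4 (40.0%) had a replicate 3 peak, beside 24.1% of all genes. Unc93b1, which carries endosomal receptors out of the endoplasmic reticulum, had 3, scored 284.47, 113.46 and 98.19, of which that scored 113.46 lay in the gene and the others nearer to Aldh3b1. Cnpy3, a folding factor of the receptors, had 1 in the gene at 222.62. Cd180, a B cell relative of the receptors, had 1 in the gene at 138.97. Cd14, the co-receptor of Tlr4, had 2 at 4.43 and 8.65 kb, scored 80.73 and 77.18. Ly96, which encodes the MD-2 partner of Tlr4, had none and a best replicate 2 score of 1508.

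Of the 5 adaptor genes, 4 (80.0%) had a replicate 3 peak, beside 24.1% of all genes. The peaks were mostly weak or distant. The only 1 at Myd88 scored 70.59, close to the lowest of the list, and lay 12.8 kb away, nearer to Oxsr1. Ticam1, which encodes TRIF, had 2 at 17.6 and 14.1 kb, scored 205.44 and 74.88 and nearer to Fem1a and Plin3. Sarm1 had 1 in the gene at 111.9. Tirap, the bridging adaptor of Tlr2 and Tlr4, had 2. That scored 79.48 lay 7.88 kb away and nearer to Dcps, and that scored 74.99 lay 0.455 kb from the gene.

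Of the 14 kinase and ubiquitin ligase genes, 4 (28.6%) had a replicate 3 peak, close to the 24.1% of all genes. Map3k7, which encodes the kinase TAK1, had 1 in the gene at 335.04, Irak2 had 1 in the gene at 243.59, and Ikbkb, the gene of the kinase IKK-beta, had 1 across its end at 227.13. Of the 9 transcription factor genes, 7 (77.8%) had a replicate 3 peak. Nfkb1 had 3, the strongest in the gene at 325.23. Irf8, an interferon regulatory factor of B cells and myeloid cells, had 1 at 327.91, 6.25 kb from the gene. The peak counted for Rela, at 443.92, lay 12.5 kb away and nearer to Sipa1.

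Of the 7 genes of negative regulators, 4 (57.1%) had a replicate 3 peak, beside 24.1% of all genes. Irak3, which encodes the inhibitory kinase IRAK-M, had 3, and 600.05 in the gene was the highest replicate 3 score at any gene of the list. Tnfaip3, which encodes the ubiquitin-editing enzyme A20, had 2, scored 224.25 at a gene end and 198.07 at 16.7 kb. Tnip1, a partner of A20, had 1 scored 113.06 at 16.8 kb, nearer to Gpx3. Of the 2 receptors outside the set, Tlr11 (chromosome 14, 50357914 to 50363663) had a peak over its start in both libraries, scored 3100 and 348.82, higher in replicate 3 than that of any of the 10 receptors. Tlr12 had 6 replicate 2 peaks, up to 886.82, and none in replicate 3.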

How the data were processed

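Per the submitters' processing notes, the authors used Trim Galore, Bowtie and MACS 1.4.1, with mm10 as the build. Other versions, the control for peak calling and the making of the merged list were not given in the sources used here. Deposited peak lists give intervals and, in the fifth column, a score by the authors' peak caller. In the merged list that score is 0 in every row. Scores depend on depth and were compared only within a list.

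Gene spans came from RefSeq on GRCm38.p6, and all 10 receptors and 47 pathway genes were matched by symbol. Spans carry no exons, so exons and introns were not separated. A peak was counted where it overlapped a span plus 20 kb by at least 1 bp. Regions of both libraries were merged intervals holding a peak of each. Overlap code was tested on simulated data. Alternatives were spans plus 0, 5 or 50 kb, peak centres, a score of at least 100, 50% reciprocal overlap and either replicate alone. Members and gene lists were chosen with earlier results of these data known. The text names all 10 receptors, up to 3 pathway genes per role with the highest replicate 3 scores, and Myd88, Unc93b1, Cd14, Ly96 and Cd180. Tlr12 and neighbouring genes were named after their values were seen. Analyses used Python 3.11.15, pandas 2.3.3 and numpy 2.4.6.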

Additional observations from a re-analysis of the deposited data

How the results depend on the processing

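Of 46 alternative values, 35 stayed within 1.5 times the main value and 11 did not. With the gene span alone, 4 receptors had a replicate 2 peak (61.4% of all genes), 4 had a merged interval (53.5%), 7 replicate 2 peaks were left, and 14 pathway genes had a region of both libraries. With 5 kb each side the receptors had 14 replicate 2 peaks. With 50 kb each side they had 59 replicate 2 peaks, 6 replicate 3 peaks and 6 regions of both libraries. Without replicate 2 or without replicate 3, the receptors with such a region numbered 3 and 9, the regions 3 and 31, and the pathway genes 24 and 47. The settings behind these changes altered the size of the window or the list used. With 20 kb each side, 9 receptors had a replicate 2 peak (84.2% of all genes) and 9 had a merged interval (76.1%). Why the receptor counts changed from there to the span alone was not tested. Score is limited by depth, which was not used here, and scores of 3100 cannot be ranked among themselves. No paired analysis was possible because all PU.1 libraries are in 1 group and the results come from no test.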

Other observations

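Within 50 kb of the receptors, 3 further replicate 3 peaks lay beyond the 20 kb windows. Of these, 1 scored 130.49 at 27.9 kb from the higher-coordinate end of Tlr4 (chromosome 4, 66874432 to 66875194), with no protein-coding gene nearer. Another scored 83.49 and lay 30.3 kb downstream of Tlr8, inside the span of Tmsb4x, the gene of thymosin beta 4. The third scored 150.67, 21.9 kb from Tlr9 and 0.425 kb from Ppm1m.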
